A study of Homo sapiens with 2 samples.

Results

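The mitochondrial ribosomal protein genes were examined in HepG2 cells, a human hepatocellular carcinoma line, loaded with free fatty acids (FFA) and cultured without or with the retinoid 9-cis-RA (the 9-cis isomer of retinoic acid). The genes were chosen by name: protein-coding genes called MRPL or MRPS with a number, without pseudogenes and antisense genes. This gave 78 genes among the 60623 entries of the count tables, 49 named for the large and 29 named for the small subunit of the mitochondrial ribosome. They lie on 21 chromosomes, with at most 8 on any of them. RNA was sequenced from 2 libraries, 1 per group, to follow the response of steatotic cells to 9-cis-RA. Wild-type HepG2 cells of both groups received 1 mM FFA, a mixture of oleic and palmitic acid bound to albumin, for 24 h. The FFA + 9-cis-RA group also received 10 μM 9-cis-RA, a ligand of the retinoid X receptors (RXR) that also binds the retinoic acid receptors. Neither library is free of FFA, and HepG2 is 1 tumor line, so the comparison concerns 9-cis-RA on top of FFA in these cells.

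The mitochondrial ribosome makes the few proteins encoded by mitochondrial DNA, all of them parts of the respiratory chain and the ATP synthase. Its RNA comes from mitochondrial DNA, whereas all of its proteins are encoded in the nucleus, translated in the cytosol and imported. The small subunit binds the mRNA and decodes it. The large subunit joins the amino acids and lets the chain out into the inner membrane. Many of the proteins have counterparts in bacterial ribosomes, and the others occur only in mitochondria.

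Total counts were 60821539 with FFA alone and 57669670 with FFA + 9-cis-RA. A gene was compared if its counts in the 2 libraries summed to at least 10, which 20431 genes met. The hepatocyte gene SERPINA1 and the hepatoma gene AFP were among the abundant genes of each library, AFP with 273242 and 134862 counts. ALB had 186609 and 112866 and TTR, also a hepatocyte gene, 341 and 278. Of the other hepatocyte genes, SERPINA1 had 294592 and 296345, APOA1 109241 and 110072, TF 44975 and 38699 and FGB 1603 and 2821. The hepatocyte genes thus did not all move the same way. GPC3, also a hepatoma gene, had 765 and 465. By contrast, PTPRC, which marks blood cells, had none, and COL1A1 and COL1A2, which mark stromal cells, had at most 3. ACTA2, VWF, LYVE1 and PECAM1, which mark stromal and endothelial cells, had between 29 and 1186 counts and fewer in the FFA + 9-cis-RA library, whereas CD68, which marks macrophages, had 5 and 15; their part in the results was not tested. The retinoid response gene CYP26A1 had 4 counts with FFA alone and 709 with 9-cis-RA added, as the labels imply. No replicate error can be had from 1 library in each group. Each log2 fold change of FFA + 9-cis-RA against FFA is therefore followed, in brackets, by an exact 95% interval (Clopper-Pearson) that covers counting error only. Where 2 counts are given, the first is from the FFA library and the second from the FFA + 9-cis-RA library. Such intervals compare these libraries, not the conditions. The counts were scaled between the libraries, so they do not show the number of cells. A change in RNA per cell cannot be told apart from a change in expression.

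A sequence motif recurred in the promoters of these genes. Promoter sequences from RefSeq (GRCh38.p14), from 250 bases before to 50 after the start of transcription, were matched for 69 of the 78 genes. The core of the binding motif of YY1, a factor that acts at many genes for mitochondrial proteins, was searched as AAGATGG on both strands and was found in 23 of the 69, or 33.3%. The share was 33.3% in the large subunit and 33.3% in the small subunit. It was 6.06% of all 27305 promoters and 7.31% of the promoters of compared protein-coding genes. Among related families it was 24.2% for 66 nuclear genes for the respiratory chain and 13.8% for 65 cytosolic ribosomal protein genes. In 16 of the 69 (23.2%) the motif lay after the start on the strand of the gene, as in 3.47% of compared protein-coding genes. The 8 windows below are shown because they hold the same letters shortly after the start in genes of both subunits whose changes, given further on, differ. They run 5′ to 3′ along the gene, and the capitals mark the motif.
MRPL22 (chr5:154941093-154941122, + strand): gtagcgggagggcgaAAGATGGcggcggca
MRPL50 (chr9:101398577-101398606, − strand): ggatctcatcgAAGATGGcggcgcgatctg
MRPL42 (chr12:93467511-93467540, + strand): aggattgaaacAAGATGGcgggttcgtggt
MRPL46 (chr15:88467362-88467391, − strand): tgggagaacgaAAGATGGcggcgcccgtaa
MRPS27 (chr5:72320206-72320235, − strand): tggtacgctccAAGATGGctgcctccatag
MRPS7 (chr17:75261887-75261916, + strand): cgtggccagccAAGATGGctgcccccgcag
MRPS18B (chr6:30617852-30617881, + strand): gggcgtacgtcAAGATGGcggcgtctgtat
MRPS10 (chr6:42217834-42217863, − strand): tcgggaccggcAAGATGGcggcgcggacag

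The motif was centered 38 bases after the start in MRPL22, 26 in MRPL50, 11 in MRPL42 and MRPL46, 19 in MRPS27, 22 in MRPS7, 26 in MRPS18B and 12 in MRPS10. Of the 24 sites, 21 lay within 100 bases of the start, and their median position was 12 bases after it. The motif contains the letters ATG, and whether these are the start codons of the genes was not examined.

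Motifs of other factors known at such genes were found in smaller shares of the promoters. The motif of ETS factors such as GABPA, searched as CCGGAAGT on both strands, was found in 11 of the 69 promoters (15.9%), against 4.44% of all promoters and 8.34% of those of compared protein-coding genes. The share was close to this in related families, 15.2% for 66 nuclear genes for the respiratory chain and 13.8% for 65 cytosolic ribosomal protein genes. Within the mitochondrial ribosomal family the motif was found in 9 of 42 large subunit genes (21.4%) and in 2 of 27 small subunit genes (7.41%). MRPL27 held it at 2 places, and MRPS34, an abundant small subunit gene, at 1. The windows of these genes, in which the capitals mark the ETS motif, are shown as examples of both subunits.
MRPL27 (chr17:50373174-50373203, − strand): acttttcgagaCCGGAAGTgagtgatcgaa
MRPS34 (chr16:1773136-1773165, + strand, opposite to the gene): cagcggtccggCCGGAAGTcaccggaagag

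The motif of NRF1, a factor known for the respiratory chain genes, was searched as GCGCNTGCG on both strands. It was found in 15.9% of the 69 promoters, against 14.2% of those of compared protein-coding genes and 34.8% of those of 66 nuclear genes for the respiratory chain. MRPL22, among the genes with the largest decreases below, held it 20 bases before the start, as shown here with the motif in capitals.
MRPL22 (chr5:154941039-154941068, + strand): ccagagtattGCGCATGCGtgctgtccaga

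In all, 33 of the 69 promoters held none of the motifs and 8 held at least 2 of them. Changes in expression were nearly equal with and without each motif. The median log2 fold change was -0.15 for the 23 genes with the YY1 core and -0.15 for the 45 compared genes without it. It was -0.15 with the ETS motif and -0.15 without it, and -0.17 with the NRF1 motif and -0.14 without it. In large subunit genes the medians with and without were -0.14 and -0.14 (YY1), -0.14 and -0.15 (ETS) and -0.18 and -0.14 (NRF1). In small subunit genes they were -0.19 and -0.17 (YY1), -0.26 and -0.16 (ETS) and -0.17 and -0.18 (NRF1). Those with the motif rest there on 2 genes for ETS and 3 for NRF1.

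Most of the family was slightly lower in the FFA + 9-cis-RA library. Of the 78 genes, 77 had enough counts to compare, and 63 of these were lower and 14 higher. Over all compared genes 52.3% were lower. The median log2 fold change of the 77 genes was -0.15, with quartiles at -0.25 and -0.04, against -0.02 for all compared genes and -0.0004 for compared protein-coding genes. Among the 8439 genes of any kind within the central 90% of the range of normalized counts of the family, 47.1% were lower and the median was 0.01. The changes were small. The distance between the quartiles was 0.21 in the family and 0.27 in those 8439 genes, and 36 of the 77 lay within 0.1 of the median of the family. Related families were more alike, with a distance of 0.14 in cytosolic ribosomal protein genes and 0.17 in nuclear respiratory chain genes. Under TMM scaling, which moved the median of all genes by 0.02, 60 of the 77 were lower. Under scaling to total counts, which moved it by 0.05, 56 of the 77 were lower.

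Few members changed by much. None was past 1 on the log2 scale in either direction. Of all compared genes 3.37% were above 1 and 4.9% below -1, but of the 8439 genes of similar level only 15 and 51 were. By a smaller measure, 17 of the 77 genes (22.1%) were lower by over 1.2-fold, near the 25.1% of all compared genes, and none was higher by over 1.2-fold, against 18.1% of all compared genes. Among the 8439 genes of similar level, 12.5% were lower by over 1.2-fold and 10.2% higher. The counting interval lay below 0 for 50 of the 77 genes, against 25.7% of all compared genes, and above 0 for 4, against 22.5%. Of the 8439 genes of similar level it lay below 0 for 2747 and above 0 for 2980. For the other 23 of the 77 genes it ran through 0. At the depth of these genes, 70 of which had over 1000 counts in each library, small differences can leave 0 outside the interval. The smallest that did were -5.2% for MRPL9 and 5.3% for MRPL15.

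**Figure D1:**
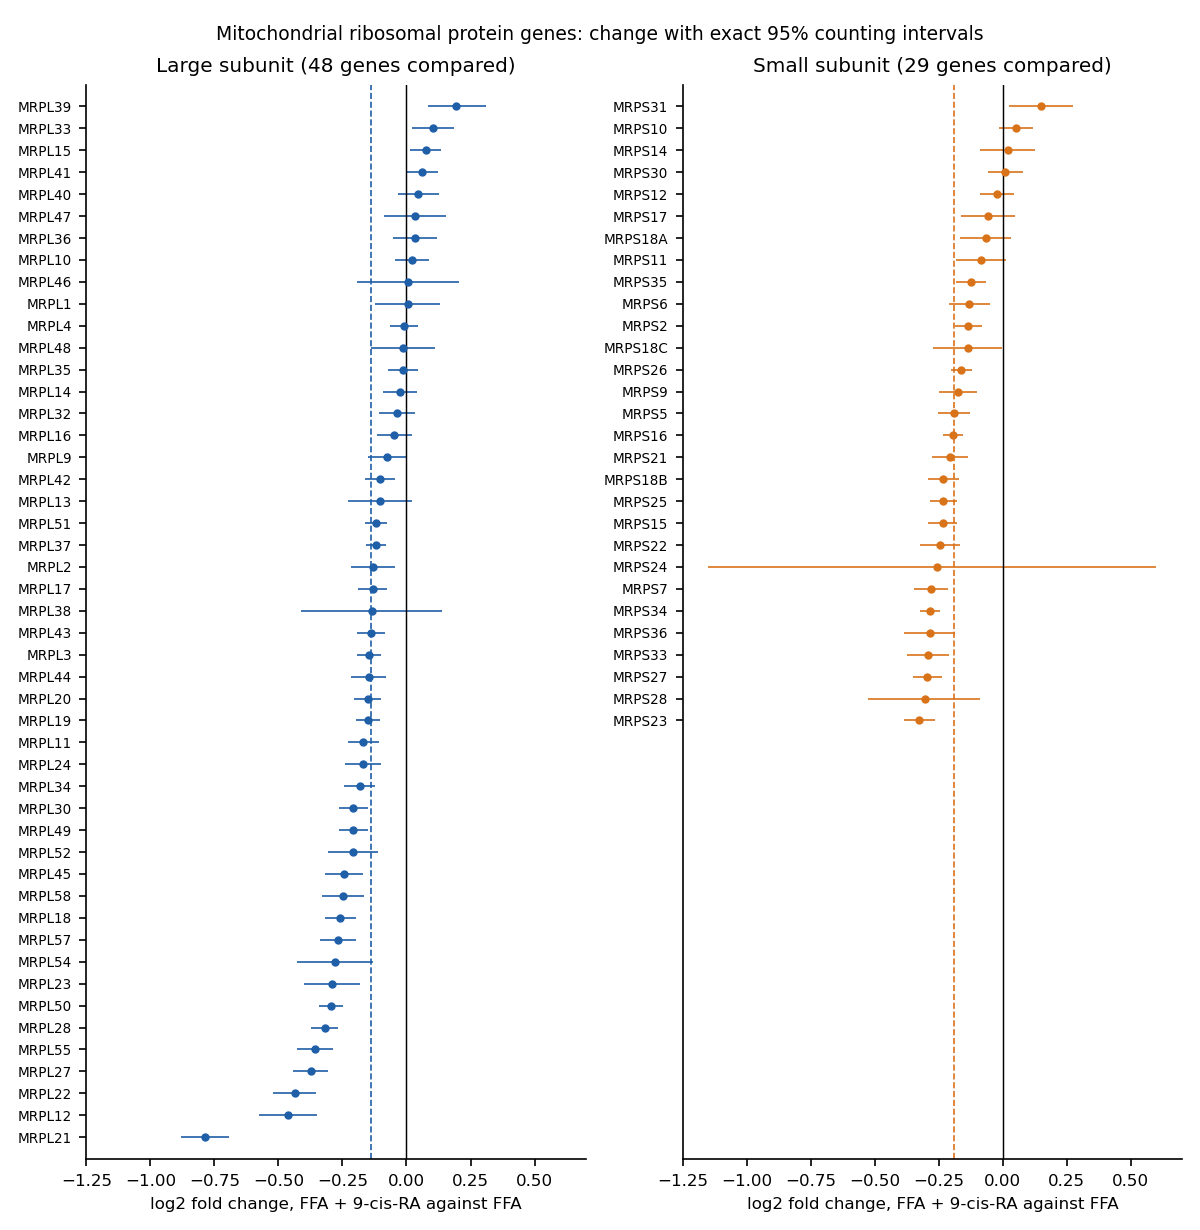
Each point is the log2 fold change of FFA + 9-cis-RA against FFA for 1 gene (horizontal axis), with 48 large subunit genes on the left and 29 small subunit genes on the right. Bars are exact 95% counting intervals, dashed lines the median of each subunit, -0.14 and -0.19. MRPL21 stands apart at -0.79, and the wide bar of MRPS24 comes from 27 and 22 counts.

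Large and small subunit genes were shifted in the same direction, the small ones slightly more. The median log2 fold change was -0.14 over the 48 compared large subunit genes and -0.19 over the 29 small subunit genes, a difference of -0.05. Lower values were found for 38 of 48 large and 25 of 29 small subunit genes, against 52.3% of all compared genes. Over all compared genes 25.1% were lower by over 1.2-fold, and over the 8439 genes of similar level 12.5%. Of the large subunit genes 10 of 48 (20.8%) were, and of the small subunit genes 7 of 29 (24.1%). Under total-count scaling the medians were -0.09 and -0.14 and these numbers became 6 and 1, since that scaling raises every value by 0.05 and several genes lay closer than this to the threshold. The interval lay below 0 for 30 large and 20 small subunit genes and above 0 for 3 and 1. Of all compared genes it lay below 0 for 25.7% and above 0 for 22.5%. Of the 8439 genes of similar level it did so for 2747 and 2980.

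The summed counts gave the same order. Those of the large subunit were 184093 and 163045, at -0.15 on the log2 scale (-0.16 to -0.14). Those of the small subunit were 117158 and 101305, at -0.18 on the log2 scale (-0.19 to -0.17). The share of the small subunit in the sum was 38.9% (exact binomial interval 38.7 to 39.1) with FFA alone and 38.3% (38.1 to 38.5) with 9-cis-RA added. These intervals did not overlap, but they cover counting error only and are narrow on sums of this size. The spread between cultures was not measured, so the difference cannot be read as an effect of 9-cis-RA on the balance of the subunits. In all, the family held 0.495% of the counts with FFA alone and 0.458% with 9-cis-RA added.

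Among large subunit genes, MRPL21 was lowest by far. MRPL21 (ENSG00000197345, chromosome 11, 68891276 to 68903835 of GRCh38, minus strand), which encodes a protein of the bacterial L21 family, had 2534 counts with FFA alone and 1441 with 9-cis-RA added. This put it at -0.79 on the log2 scale (-0.88 to -0.69). Only the interval of MRPS24, which rests on few counts, reached into that of MRPL21, and the next lowest bound of a compared member was -0.58. Without MRPL21, the summed log2 fold change of the large subunit was -0.14 in place of -0.15.

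The next were MRPL12, MRPL22, MRPL27 and MRPL55, all with bacterial counterparts. MRPL12, a protein of the stalk where translation factors bind, also known to bind the mitochondrial RNA polymerase, had 1541 and 1096 counts. It stood at -0.46 on the log2 scale (-0.58 to -0.35). The readthrough gene AC139530.2 shares 69.5% of those exons in the same orientation, and fragments there were assigned to neither gene. MRPL22, whose bacterial relative lines the tunnel through which the new chain leaves, had 2738 and 1986 counts, at -0.44 on the log2 scale (-0.52 to -0.35). MRPL27, whose relative reaches the site where amino acids are joined, had 4039 and 3059 counts, at -0.37 on the log2 scale (-0.44 to -0.31). MRPL55 had 3769 and 2890 counts (-0.36), and MRPL28 6555 and 5152 (-0.32). MRPL50, a protein found only in mitochondria, had 8114 and 6495 counts, at -0.29 on the log2 scale (-0.34 to -0.25). The 3 others of the 10 that were lower by over 1.2-fold were MRPL23, MRPL54 and MRPL57, at -0.29, -0.28 and -0.27.

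A further 20 large subunit genes were lower by less than that, from -0.26 to -0.08, with the interval below 0. They include MRPL18, a relative of the protein that binds 5S RNA in bacteria, with 5003 and 4102 counts. MRPL58, a hydrolase that frees chains from stalled ribosomes and is built into the large subunit, had 2629 and 2171 counts, at -0.25. on the log2 scale MRPL45, which ties the ribosome to the inner membrane, had 3295 and 2728 counts, at -0.24. on the log2 scale The others were MRPL52, MRPL49, MRPL30, MRPL34, MRPL24, MRPL11, MRPL19, MRPL20, MRPL44, MRPL3, MRPL43, MRPL17, MRPL2, MRPL37, MRPL51, MRPL42 and MRPL9.

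For 15 large subunit genes the interval ran through 0, with values from -0.14 to 0.06. These were MRPL38, MRPL13, MRPL16, MRPL32, MRPL14, MRPL35, MRPL48, MRPL4, MRPL1, MRPL46, MRPL10, MRPL36, MRPL47, MRPL40 and MRPL41. The sign depended on the scaling for MRPL16, MRPL32, MRPL14, MRPL35, MRPL48 and MRPL4, and for MRPS12 in the small subunit. Of those with a value above 0, MRPL41 had 4037 and 4133 counts, MRPL40 had 2567 and 2601, and MRPL47 had 1112 and 1117.

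Only 3 large subunit genes were higher with the interval above 0. MRPL39 (chromosome 21, 25585656 to 25607517, minus strand), found only in mitochondria, had 1201 and 1349 counts, at 0.20 on the log2 scale (0.08 to 0.31). MRPL33 had 2335 and 2460 counts, at 0.10 on the log2 scale (0.02 to 0.19), and BABAM2 overlaps 21.1% of its exonic bases. MRPL15 had 4201 and 4340 counts, at 0.07 on the log2 scale (0.01 to 0.14). The highest value of the family was thus a change of less than 1.2-fold.

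In the small subunit the lowest genes lay closer together. MRPS23 (chromosome 17, 57834781 to 57850056, minus strand), found only in mitochondria, had 4927 and 3858 counts, at -0.33 on the log2 scale (-0.39 to -0.26). MRPS27, an RNA-binding protein found only in mitochondria, had 5811 and 4647 counts, at -0.29 on the log2 scale (-0.35 to -0.24). MRPS34 had 11257 and 9066 counts, the most of any member in the FFA library, and stood at -0.28 on the log2 scale (-0.32 to -0.24). MRPS7, which in bacteria begins the assembly of the head of the subunit, had 4114 and 3320 counts and MRPS33 had 2710 and 2174. MRPS28 had 393 and 312 counts, at -0.30 on the log2 scale with a wide interval (-0.52 to -0.09), and AC036214.3 overlaps 35.8% of its exonic bases. MRPS36 had 1789 and 1440 counts, at -0.29 on the log2 scale (-0.39 to -0.18). Despite its name it is now known as a part of the 2-oxoglutarate dehydrogenase complex rather than of the ribosome.

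Another 13 small subunit genes were lower within 1.2-fold, from -0.24 to -0.12, with the interval below 0. They were MRPS22, MRPS15, MRPS25, MRPS18B, MRPS21, MRPS16, MRPS5, MRPS9, MRPS26, MRPS18C, MRPS2, MRPS6 and MRPS35. The interval ran through 0 for 8, MRPS24, MRPS11, MRPS18A, MRPS17, MRPS12, MRPS30, MRPS14 and MRPS10. MRPS12, whose relative stands at the decoding center, was among these, with 3887 and 3755 counts. MRPS10 had 3642 and 3707 counts. MRPS31 (chromosome 13, 40729128 to 40771190, minus strand) alone was higher with the interval above 0, with 1019 and 1108 counts, and it stood at 0.15 on the log2 scale (0.02 to 0.27).

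The 3 human relatives of the bacterial S18 protein, which take different places in the ribosome, did not share one value. MRPS18A, placed in the large subunit despite its name, had 1690 and 1583 counts, at -0.07 on the log2 scale (-0.17 to 0.03). MRPS18B had 5005 and 4181 counts, at -0.23 on the log2 scale (-0.29 to -0.17). MRPS18C, at the place of the bacterial protein, had 942 and 840 counts, at -0.14 on the log2 scale (-0.27 to -0.002). MRPS30, which is also a large subunit protein by structure, had 3516 and 3474 counts, at 0.01 on the log2 scale (-0.06 to 0.08). When MRPS18A and MRPS30 were counted as large and MRPS36 was left out, the medians were -0.13 and -0.19.

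Proteins listed with a direct bacterial counterpart and all others, most of them found only in mitochondria, were set side by side. In the large subunit the medians on the log2 scale were -0.14 for 30 genes of the former and -0.14 for 18 compared genes of the latter. In the small subunit they were -0.16 for 16 and -0.23 for 13. Of those 16 genes 2 (12.5%) were lower by over 1.2-fold, and of the 13 genes 5 (38.5%) were. The share was 25.1% over all compared genes and 12.5% over the 8439 genes of similar level. The 13 include MRPS18A and MRPS18B, relatives of a bacterial protein, as well as MRPS30 and MRPS36, and without these 4 genes the median of the other 9 was -0.24 and 4 were lower by over 1.2-fold. The summed log2 fold changes of the groups of 16 and 13 small subunit genes were -0.15 (interval -0.17 to -0.13) and -0.21 (interval -0.23 to -0.19). Under total-count scaling their medians were -0.11 and -0.18. With that scaling MRPS23, 1 of the 13, was the only small subunit gene lower by over 1.2-fold, so the difference in these numbers depends on the scaling.

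Levels of the genes were compared as normalized counts per kb of exonic length. The median over the libraries' means was 1486 for the compared large and 1035 for the small subunit genes. The highest levels were those of MRPS26, with 10304 under FFA and 9211 under FFA + 9-cis-RA, and MRPS34, with 10164 and 8344. In the large subunit MRPL41 stood at 6870 and 7170 and MRPL51 at 6494 and 5986, followed by MRPL14, MRPL37 and MRPL18 at between 3014 and 3972. In the small subunit MRPS16, MRPS18B and MRPS35 followed, at between 2403 and 3976. All of MRPS26, MRPS34, MRPL41 and MRPL51 are found only in mitochondria.

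Most of the genes with the lowest levels share bases with others. MRPL53 had 1 and 2 counts, too few to compare. CCDC142, which had 3336 and 5220 counts, shares 72.8% of the exonic bases of MRPL53 in the same orientation, and fragments there went to neither gene. MRPS24 had 27 and 22 counts, and its readthrough gene URGCP-MRPS24, with no counts, overlaps 23.2% of its exonic bases. MRPL38 stood at 63.0 and 57.3 normalized counts per kb with 37.5% overlapped, and MRPL46 at 64.4 and 64.7 with 11.3% overlapped. MRPS17, of which AC092647.5 overlaps 22.4%, had 1506 and 1420 counts. For overlapped genes a low level per kb in the tables need not be a low level in the cell. In the small subunit MRPS18C, which no gene overlaps, and MRPS28 stood next above MRPS24, at 192 and 214 normalized counts per kb in the FFA library.

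**Figure D2:**
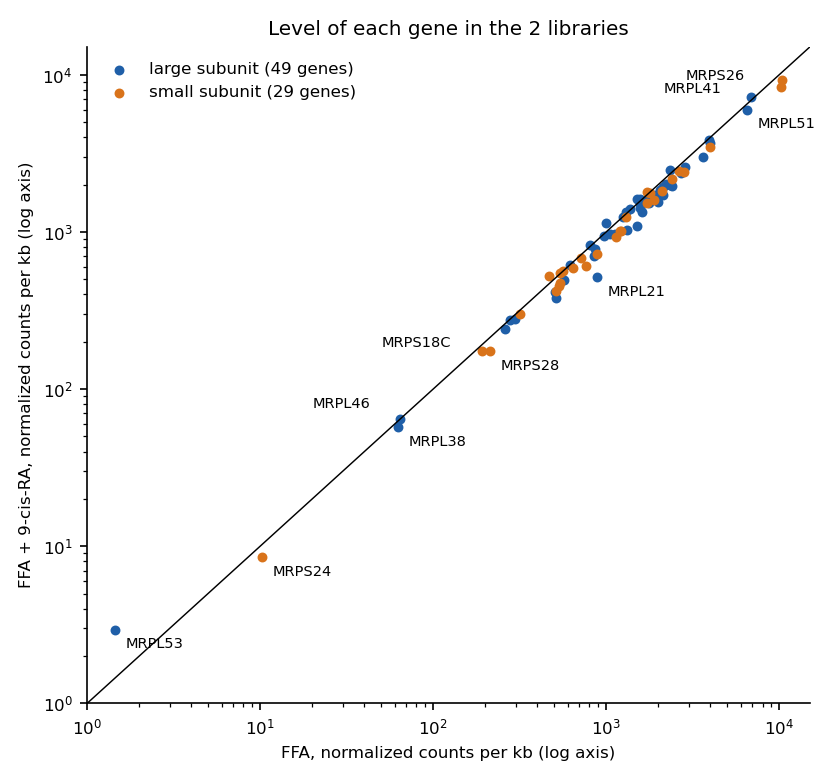
Normalized counts per kb in the FFA library (horizontal, log axis) and in the FFA + 9-cis-RA library (vertical, log axis) for all 78 genes, with the line of equal levels. Most genes lie in a band just below the line, MRPL21 farther below it, and MRPL53, MRPS24, MRPL38 and MRPL46 at the bottom.

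Other parts of the mitochondrial translation machinery were taken from fixed lists. Of 5 mitochondrial ribosome proteins with other names, DAP3, PTCD3, AURKAIP1, CHCHD1 and GADD45GIP1, all were lower, with log2 fold changes from -0.17 to -0.05 and a median of -0.11. None was lower by over 1.2-fold. PTCD3 was lowest, with 9040 and 7908 counts, then CHCHD1, with 2530 and 2257, and AURKAIP1, with 9291 and 8441. GADD45GIP1 had 3596 and 3416 counts and was at 0.003 under total-count scaling. DAP3, a GTP-binding protein of the small subunit, had 4531 and 4279 counts, at -0.05 on the log2 scale (-0.12 to 0.01).

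The values of the ribosomal RNAs lay closer to 0 than the medians of the protein genes. MT-RNR1, the RNA of the small subunit, had 151842 and 145149 counts, at -0.04 on the log2 scale (-0.05 to -0.03). MT-RNR2, the RNA of the large subunit, had 918264 and 939134 counts, at 0.06 on the log2 scale (0.06 to 0.06). The libraries were made from poly(A) RNA, so these counts reflect only the part of the ribosomal RNA that was captured, and total-count scaling, which adds 0.05, puts MT-RNR1 on the other side of 0.

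Of 28 genes for assembly of the mitochondrial ribosome, 16 were lower and 12 higher, with a median log2 fold change of -0.02. Lower by over 1.2-fold were 5 and higher 2. TFB1M, which methylates the RNA of the small subunit, had 2965 and 1852 counts, at -0.65 on the log2 scale (-0.74 to -0.57). DDX28, a helicase of large subunit assembly, had 1667 and 1246 counts, at -0.39 on the log2 scale (-0.50 to -0.29). MRM2, a methyltransferase of the large subunit RNA, had 23 and 11 counts, an interval of -2.22 to 0.06. On the higher side were MPV17L2 with 1798 and 2186 counts (0.31, 0.22 to 0.40), MTERF3 with 879 and 1042 (0.27, 0.14 to 0.40) and RPUSD3, a pseudouridine synthase, with 2066 and 2315 (0.19, 0.11 to 0.28).

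Among 17 translation factors and partners, 13 were lower, 2 of them by over 1.2-fold, and 4 were higher, 1 of them by over 1.2-fold (TSFM, on few counts), with a median of -0.05. SLIRP, which with LRPPRC protects mitochondrial mRNA, had 1233 and 606 counts, at -0.996 on the log2 scale (-1.14 to -0.86). LRPPRC itself had 21493 and 20406 counts, at -0.05 on the log2 scale (-0.07 to -0.02). MTRF1, a release factor, had 900 and 724 counts (-0.29) and MRRF, which recycles the ribosome, 3425 and 2975 (-0.18). MTFMT, which formylates the initiator tRNA, had 923 and 1038 counts (0.20, 0.07 to 0.33), TSFM, the partner that recharges TUFM, had 27 and 32, and GFM2, also a recycling factor, had 1630 and 1655 (0.05). TUFM, the elongation factor that brings tRNA, had 17408 and 17027 counts, at -0.004 on the log2 scale (-0.03 to 0.03).

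Of 17 mitochondrial tRNA synthetases, 11 were lower and 6 higher, with a median of -0.10. The lowest were WARS2, with 986 and 704 counts (-0.46, -0.60 to -0.32), FARS2 at -0.30 and SARS2 at -0.28. The highest were YARS2 at 0.11, MARS2 at 0.06 and TARS2 at 0.05.

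The genes that transcribe mitochondrial DNA had a median of -0.10 over 5 genes. MTERF1 was lowest, with 1464 and 1177 counts (-0.29, -0.40 to -0.18). POLRMT, the polymerase, had 7778 and 7097 counts (-0.10), TFB2M 1356 and 1240 (-0.10) and TEFM 699 and 653 (-0.07). TFAM, which packs and activates mitochondrial DNA, had 6160 and 6202 counts (0.04).

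Regulators of nuclear genes for mitochondrial proteins had a median of -0.04 over 9 genes, and none passed 1.2-fold. YY1, whose core motif is shown above, had 8506 and 8397 counts, at 0.01 on the log2 scale (-0.03 to 0.05). NRF1 had 1139 and 1172 counts (0.07, -0.05 to 0.19), GABPA 1707 and 1630 (-0.04, -0.14 to 0.06) and its partner GABPB1 1508 and 1347 (-0.14, -0.24 to -0.03). The coactivator PPARGC1A was lowest, with 852 and 700 counts (-0.26, -0.40 to -0.11), followed in order by GABPB1 and PPRC1 (-0.11). PPARGC1B stood at -0.07 and ESRRA at -0.04. MYC had 15129 and 16028 counts (0.11, 0.08 to 0.14).

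Related families showed shifts of the same sign and of smaller size. The median was -0.11 over 80 compared cytosolic ribosomal protein genes, of which 65 were lower and 10 were lower by over 1.2-fold. It was -0.07 over 77 compared nuclear genes for respiratory chain and ATP synthase subunits, of which 56 were lower and 7 were lower by over 1.2-fold. Lower genes thus made up 81.8% of the compared mitochondrial, 81.2% of the cytosolic ribosomal protein genes and 72.7% of the respiratory chain genes. Lower by over 1.2-fold were 22.1%, 12.5% and 9.09%. Under total-count scaling the medians of the cytosolic and the respiratory chain genes were -0.06 and -0.02, and the differences between the families could not be tested.

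**Figure D3:**
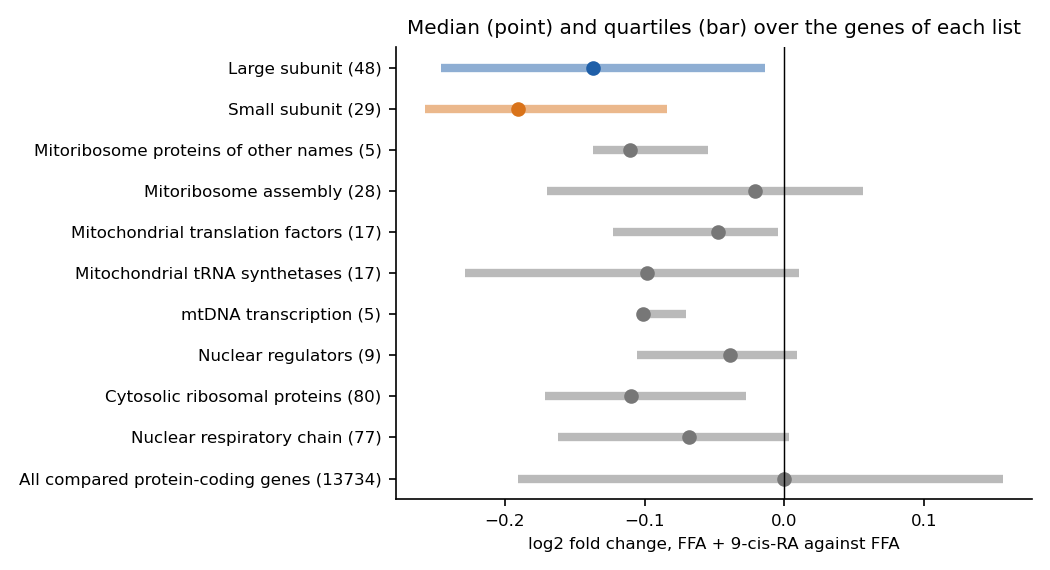
Median (point) and quartiles (bar) of the log2 fold change of FFA + 9-cis-RA against FFA over the genes of each list, with the number of compared genes in brackets. The small subunit has the lowest median of the lists, -0.19, and the assembly genes, at -0.02, lie closest to all compared protein-coding genes.

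The genes were also set beside genes that start close by on the opposite strand. How common such neighbors are among all protein-coding genes was not computed, so their number cannot be read as particular to this family. Starts here are the outermost annotated edges of genes. By these, 28 of the 78 start within 1000 bases of a protein-coding gene on the opposite strand. This was examined after the values of the family were known. Such an edge can lie far from the promoter start used above. For MRPL11, paired with PELI3, it is 66466738, while its YY1 window is at 66438806 to 66438835. For MRPS22, paired with PRR23A, it is 139005806, while an ETS window is at 139343903 to 139343932. The median of the 28 genes was -0.19, against -0.14 for the 49 compared genes without such a neighbor. The 27 compared neighbors had a median of -0.08, 18 of them were lower, and 3 were lower by over 1.2-fold. The counting used strand, so fragments of a gene and of its neighbor are told apart.

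MRPL21 and its neighbor lay on different sides of 0. IGHMBP2, a helicase gene whose start lies 7 bases from that of MRPL21, had 1462 and 1609 counts, at 0.17 on the log2 scale (0.06 to 0.27), while MRPL21 stood at -0.79. EME1, 13 bases from MRPL27, had 894 and 874 counts, or -0.01 on the log2 scale against -0.37. Values also lay apart in other pairs. APBA3 stood at 0.20 against -0.28 for MRPL54, and GGA3 at 0.11 against -0.28 for MRPS7. PSMA2 stood at 0.40 against -0.04 for MRPL32, and TCP1 at 0.01 against -0.26 for MRPL18. In some pairs the values lay close together. FAU, 6 bases from MRPL49 and itself counted with the cytosolic ribosomal protein genes, had a log2 fold change of -0.24 against -0.21. PTCD2 had -0.38 against -0.29 for MRPS27. In 1 pair both are members: MRPL46 and MRPS11 start 63 bases apart, at 0.01 and -0.08, and their intervals overlap.

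**Figure D4:**
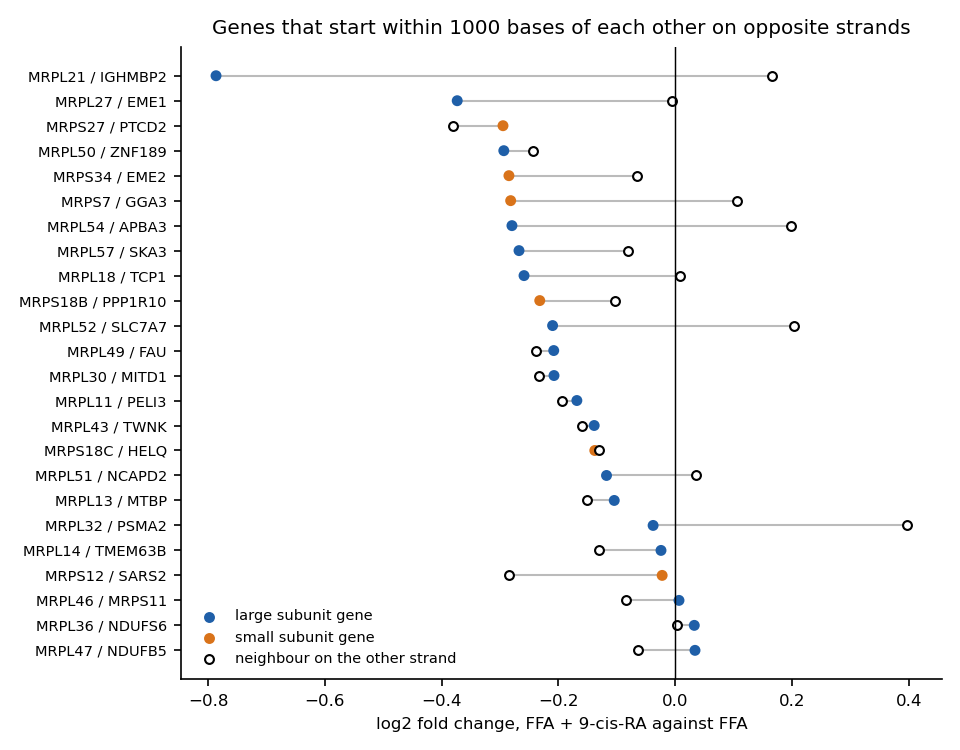
Log2 fold change of FFA + 9-cis-RA against FFA (horizontal axis) for 24 pairs of genes that start within 1000 bases of each other on opposite strands, with at least 100 counts for the neighbor over both libraries. Starts are the outermost annotated edges of genes, which can differ from the promoter starts. Filled points are mitochondrial ribosomal protein genes and open points their neighbors. The widest gap is that of MRPL21 at -0.79 and IGHMBP2 at 0.17.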

How the data were processed

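RNA sequencing counts of the 2 libraries, 1 per group, were used. The authors deposited raw counts per gene without normalization, made with featureCounts version 2.0.1 on the reverse strand (setting 2) from read pairs. Fragments with more than 1 mapping place or gene were left out, which lowers the counts of overlapped genes and of those with near-identical pseudogenes. The build is GRCh38; the aligner and annotation release are not given in the sources used here. Symbols and exons came from GENCODE release 29 and the given name tables.

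Counts were divided by DESeq2 1.42.0 size factors in R 4.3.3, and a pseudocount of 1 was added before the log2 fold change was taken, which understates the change of genes with few counts. TMM factors came from edgeR 4.0.16. Lists, intervals and trends were computed in Python 3.11.15 (scipy 1.17.1 for intervals, statsmodels 0.14.6 for trends, pandas 2.3.3 and numpy 2.4.6 for tables and matplotlib 3.10.9 for plots). No model can be fitted with 1 library per group, so no p-value is given.

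The members and lists were chosen with earlier results of these data known. Named genes were those at the ends of the ranking by the interval bound nearest to 0 (8 on each side), the 5 highest and 3 lowest per kb of each subunit, the MRPS18 genes, MRPS30, MRPS36 and MRPL12, the 3 highest and 3 lowest of each pathway list and all of short lists, members past 1 or under 10 counts, and members with 20% or more of their bases overlapped or with an expressed pseudogene. Others were named after their values were seen. The NRF1 motif was shortened by its last letter, also after the data were seen. Alternatives were other scalings, pseudocounts of 0.1 and 5, no count minimum or one of 50, loess trends (span 0.3) on expression, length and GC content removed, and other member sets.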

Additional observations from a re-analysis of the deposited data

Results flagged for a closer look

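Transcripts that are not members but are named for their place beside them carried counts in both libraries, above the limit of 3 that a count of 0 allows. The antisense gene MRPL20-AS1 had 1703 counts with FFA alone and 1619 with FFA + 9-cis-RA. The divergent transcript MRPL20-DT had 302 and 272, MRPS30-DT had 46 and 30, and MRPL23-AS1 had 70 and 88. The counting intervals of their log2 fold changes all ran through 0.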

How the results depend on the processing

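The medians of both subunits stayed below 0 under all 13 alternatives, and the small subunit was the lower one in each. Those of the large and the small subunit were -0.12 and -0.17 with TMM, -0.088 and -0.14 with total-count scaling, -0.10 and -0.14 with the trend on gene length removed, and -0.15 and -0.23 without members that have a pseudogene. The small subunit stood at -0.18 with the trend on GC content removed and at -0.17 with the 5 proteins of other names. The difference between subunits was -0.030 with these proteins and -0.085 without members that have a pseudogene. Under total-count scaling 6 large and 1 small subunit genes were lower by over 1.2-fold, in place of 10 and 7, and with the trend on gene length removed 3 small subunit genes were. A large subunit gene was higher by over 1.2-fold (1 in place of 0) without the count minimum, when MRPL53 entered with 1 and 2 counts, and with the trend on gene length removed. The share of the small subunit in the FFA and the FFA + 9-cis-RA library was 36.8% and 36.1% with subunits by place in the ribosome, 43.2% and 42.7% with the 5 proteins of other names, and 39.7% and 39.0% without members that have a pseudogene, lower in the second library each time. The other 80 of 103 values moved by less than the counting error of the summed counts or of the share of a subunit or, for counts of genes, by at most 1.5 times. No paired analysis was possible because each group has 1 library. The spread between cultures was not measured, so changes of this size may also occur between cultures of the same treatment, and depth limits MRPL53 and MRPS24.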

Other observations

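Pseudogenes of the family were nearly silent in these tables. Of 80 annotated pseudogenes of 36 members, 64 had no counts, and all of them together had 710 counts with FFA alone and 673 with FFA + 9-cis-RA. MRPL3P1 had 312 and 261 of these, MRPL45P2 200 and 183, MRPS31P4 56 and 71, MRPS31P5 40 and 64 and MRPS18CP7 41 and 31, and those of MRPL37, MRPL32 and MRPS18A and the other one of MRPL45 had at most 18. Fragments that map equally well to a member and its pseudogene were counted for neither. The members themselves had far more counts, with 7822 and 6942 for MRPL3, 10223 and 9235 for MRPL37 and 3275 and 3130 for MRPL32.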
